A study of Mus musculus with 6 samples.

Results

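Subunits of the receptors for glutamate, GABA, glycine and acetylcholine were followed in the ventral midbrain of Pitx3-/- mouse embryos. All probes whose platform gene symbol names an AMPA (Gria), NMDA (Grin1, Grin2, Grin3), kainate (Grik), metabotropic glutamate (Grm), GABA-A (Gabra, Gabrb, Gabrg), GABA-B (Gabbr), glycine (Glra, Glrb) or nicotinic acetylcholine receptor (Chrn) subunit were taken. This gave 81 probes for 52 genes, out of 31769 gene probes and 17888 named genes on the array. The tested RNA came from Pitx3-/- ventral midbrain dissected at E14.5, in 3 pools of 3 midbrains. The other RNA was a single Pitx3+/+ reference of 10 midbrains of the same age. Neither the mutant allele nor the strain is named in the sources available. Each mutant pool was hybridised on 2 two-colour arrays with the dyes exchanged, 6 arrays in all, and the mean of the 2 arrays was taken as 1 replicate (n = 3). Ratios below are log2 mutant over reference, so a negative value means less signal in the mutant, and errors are SD over the 3 pools.

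These receptors carry most fast and much slow signalling between neurons. AMPA, NMDA and kainate receptors are cation channels opened by glutamate, while metabotropic glutamate receptors and GABA-B receptors act through G proteins. GABA-A and glycine receptors are chloride channels, which in young neurons often depolarise the cell before they become inhibitory. Nicotinic receptors are cation channels opened by acetylcholine, and adult midbrain dopaminergic neurons are known for receptors that contain the alpha6 and beta3 subunits. Pitx3 is a homeobox transcription factor of those neurons.

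Arrays were dim: median spot signals of 70.6 to 77.5 scanner units in Cy5 and 46.2 to 50.4 in Cy3 stood over median local backgrounds of 58 to 62 in Cy5 and 38 to 41 in Cy3. Pool 3 stood apart: across probes, which are not independent, its ratios correlated with those of pools 1 and 2 at -0.21 and -0.19, while pools 1 and 2 correlated at 0.59. Results that rest on pool 3 are therefore also given without it. The Pitx3 probe was above background on no array and so checks nothing about the genotype. Of 7 dopaminergic markers, Pitx3 among them, all were measured and 5 were above background on all arrays in at least 1 channel. Slc18a2, the vesicular monoamine transporter, had ratios of -0.38, -0.38 and -0.32 in pools 1, 2 and 3. Th, the tyrosine hydroxylase gene, had 0.021, -0.22 and -0.23. Aldh1a1 had -0.13, -0.20 and -0.20, Nr4a2 -0.086, -0.061 and -0.23, and Ddc 0.037, -0.050 and -0.046. Slc6a3 had -0.11, -0.14 and -0.11. In the reference, Aldh1a1 was above background on 6 arrays and Slc6a3 on 2. In the mutant, both were above background on no array. The offset of 50 added to the background-corrected signals shrinks the ratios of such dim spots. With no offset the mean was -1.1 instead of -0.18 for Aldh1a1, and -0.92 instead of -0.12 for Slc6a3.

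Most receptor subunit probes had ratios close to 0. The 2 furthest from it were on the lower side: the brightest probe of Glra2, the glycine receptor alpha subunit of embryonic neurons, at -0.18 ± 0.14, and the probe of Gria2, the AMPA subunit that keeps the channel closed to calcium, at -0.095 ± 0.087. These correspond to 0.88 times and 0.94 times the reference signal. With limma and adjustment over all 31769 probes, none of the 81 probes passed an adjusted p of 0.05, where the background was 0.0% of all gene probes, and the lowest adjusted p among them was 0.91. At an unadjusted p under 0.05 there were 6 member probes, 5 lower and 1 higher. That is 7.41% of them, against 4.87% of all gene probes (2.41% lower and 2.46% higher). Of the 29 member probes above background 2 were among them, both lower (6.90%), against 9.48% of all probes above background in either direction and 4.84% on the lower side. All 6 arrays were also fitted singly in limma, with dye in the model and pool as a random block. There, 0 of the 81 member probes passed the adjusted p, against 0.0567% of all gene probes. An unadjusted p under 0.05 was found for 3 of the 81, against 6.45% of all. In whole tissue, fewer cells of a type and less RNA per cell cannot be told apart.

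Detection limited what could be seen. A spot counted as above background when either channel was more than 2 background SDs over the mean of its local background. Of the 81 probes, 29 met this rule on all 6 arrays (35.8%), belonging to 23 genes, against 43.7% of all gene probes. For 12 more genes the best probe passed on 1 to 5 arrays, and for 17 genes no probe passed on any array. Of the 29 probes, 23 were above background in both the mutant and the reference channel on every array. Another 7 probes were above background in one genotype and on no array of the other, but on at most 3 arrays, and none of them allowed a fold bound above 1.

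**Figure D1:**
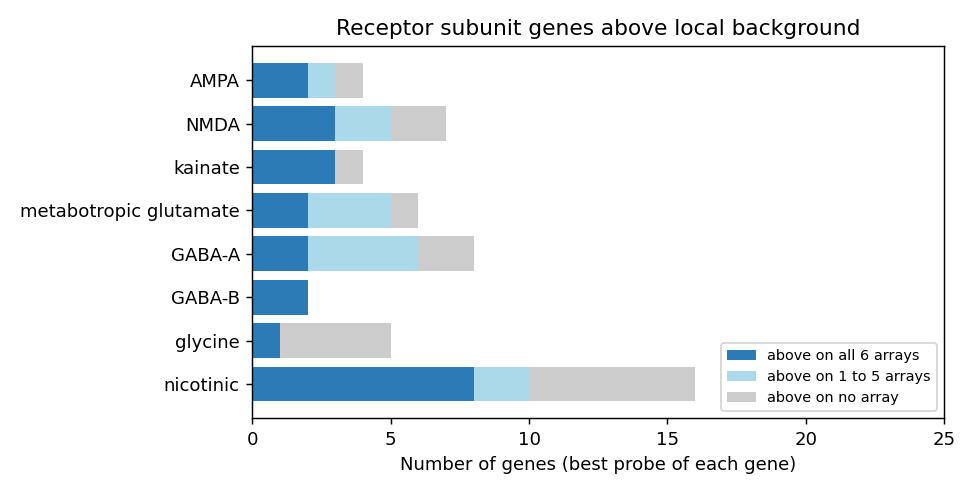
Number of subunit genes in each receptor class (horizontal axis) whose best probe was above local background on all 6 arrays, on 1 to 5 arrays or on none. The nicotinic class had 8 of 16 genes above background on all arrays, the glycine class 1 of 5.

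The AMPA class had 4 measured genes, of which Gria2 and Gria3 were above background on all arrays. Gria2 had ratios of -0.19, -0.066 and -0.025 in pools 1, 2 and 3, all below 0, with a 95% interval of -0.18 to -0.0046 for the mean. Gria3 had -0.11, -0.020 and 0.0085, and its interval of -0.11 to 0.026 includes 0. Gria1 was above background in the reference on 1 array only. Gria4 was above background on no array, and its ratio of -0.036 ± 0.011 had opposite signs by dye, at -0.15 with the mutant in Cy5 and 0.075 with the mutant in Cy3.

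The raw signals of Gria2 show how far the dyes act on the same spots. With the mutant in Cy5, Gria2 gave 402, 318 and 248 scanner units in pools 1, 2 and 3, against 224, 176 and 119 for the reference in Cy3. With the mutant in Cy3 it gave 165, 178 and 161, against 458, 411 and 360 for the reference in Cy5. The Cy5 channel was thus the brighter one on every array, whichever RNA it held. After loess the mean ratio was -0.047 with the mutant in Cy5 and -0.14 with the mutant in Cy3. In limma the unadjusted p of Gria2 was 0.043 (adjusted p = 0.91). Its interval widened to -0.30 to 0.069 with no offset added to the background-corrected signals, and its mean was -0.046 without pool 1 and -0.18 when arrays were centred on their median and not by loess.

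**Figure D2:**
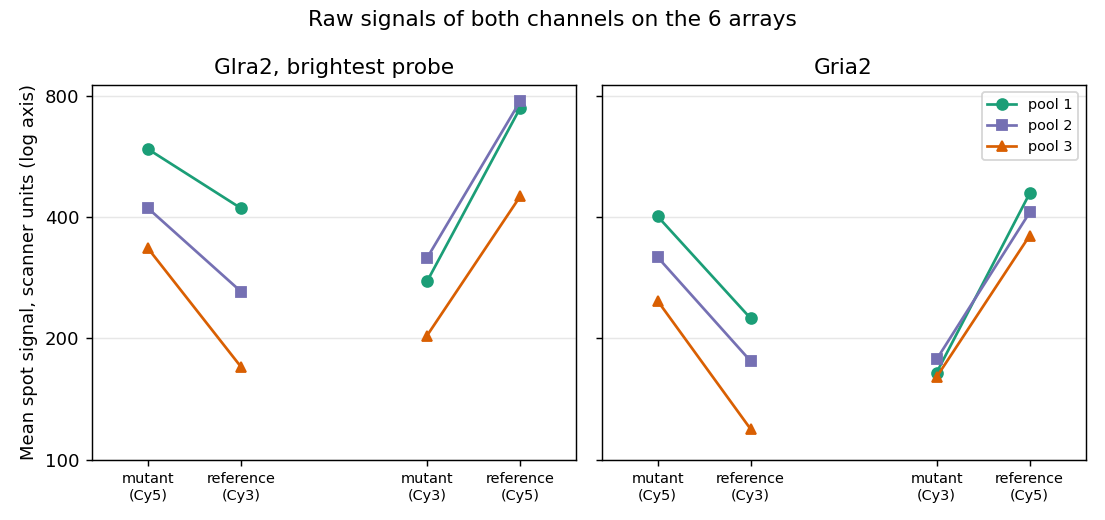
Mean spot signal in scanner units (log axis) of the brightest Glra2 probe and of the Gria2 probe, with mutant and reference channels of the same array joined by a line and pools 1 to 3 shown by colour and marker. The 3 arrays with the mutant in Cy5 are on the left of each panel and those with the mutant in Cy3 on the right, and Cy5 is the brighter channel on all of them.

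NMDA receptors join the obligatory Grin1 subunit with Grin2 or Grin3 subunits. Of 7 measured genes, Grin2a, Grin2c and Grin3a had a probe above background on all arrays. Grin2a had the ratio furthest from 0, with -0.083, -0.025 and 0.043 in pools 1, 2 and 3 and an interval of -0.090 to 0.046. Grin3a, whose subunit lowers calcium entry, had -0.052, 0.00097 and 0.063. In both genes pool 1 was the lowest and pool 3 the highest. The brightest Grin2c probe had 0.012, 0.025 and 0.012, and the 2 dimmer probes lay at 0.0041 and -0.017. Grin1 and Grin3b were above background on no array, Grin2b on 1 array in the reference and Grin2d on 3 arrays.

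Kainate receptors had 4 measured genes, and Grik1, Grik4 and Grik5 were above background on all arrays. Among probes above background on all arrays, a Grik4 probe had the ratio furthest from 0, with 0.0018, -0.017 and -0.044 in pools 1, 2 and 3. A brighter Grik4 probe had a mean of -0.0081 and another, above background on 5 arrays, of 0.023, so the Grik4 probes did not share a sign. Grik1 lay at -0.0048 ± 0.013 and Grik5, the high-affinity KA2 subunit, at 0.0060 ± 0.018. Grik3 was above background on no array.

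Among 6 metabotropic glutamate receptor genes, Grm4 and Grm7, which both lower cyclic AMP, were above background on all arrays. Grm4 had 7 probes, of which 3 passed. The brightest stood at -0.0012, 0.069 and -0.11 in pools 1, 2 and 3. The others had 0.037, 0.033 and -0.0037, and 0.030, 0.035 and 0.010. Pool 3 was the lowest of the pools for each of these probes, and their means differed in sign (-0.013, 0.022 and 0.025). Grm7 stood at -0.070, -0.027 and 0.031. Grm3, at -0.031 ± 0.0080, was one of the 6 probes at an unadjusted p under 0.05, but was above background on 5 arrays and stood at -0.12 with the mutant in Cy5 and 0.055 with the mutant in Cy3. Grm2 and Grm6 passed on 5 arrays and 1 array, and Grm5 on none.

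GABA-A receptors had 8 measured genes, and Gabra2 and Gabrg1 were above background on all arrays. Gabra2, an alpha subunit common in the embryonic brain, had -0.027, -0.044 and 0.049 in pools 1, 2 and 3. Gabrg1 had -0.035, -0.045 and 0.11. Both were below 0 in pools 1 and 2 and above 0 in pool 3, and Gabrg1's mean of 0.0087 was -0.040 without pool 3. The 2 genes are neighbours on chromosome 5 in the RefSeq gene order. Gabra3, above background on 4 arrays, stood at -0.070, -0.061 and 0.022. Gabra4, Gabra5 and Gabra6 passed on 2, 5 and 1 arrays, with means between -0.0098 and 0.0043, and Gabrb1 and Gabrb2 on none.

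GABA-B receptors are pairs of the Gabbr1 and Gabbr2 proteins, and both genes were above background on all arrays. Gabbr1 had 0.064, 0.019 and -0.040 in pools 1, 2 and 3, with an interval of -0.044 to 0.073 for the mean of 0.014. Gabbr2 had 7 probes, 2 of them above background on all arrays, with means of -0.0048 and 0.0088. None of these 3 probes differed from 0 by more than its spread between pools. Of the other Gabbr2 probes, 2 passed on 4 arrays, at -0.024 ± 0.048 and 0.013 ± 0.0015, and 3 on none.

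Glycine receptors form from Glra subunits, alone or with Glrb, the subunit that anchors the receptor to gephyrin. Glra2 was the only one of 5 measured genes above background. It had 6 probes, and those that passed on all 6 arrays numbered 3. The brightest had ratios of -0.33, -0.15 and -0.057 in pools 1, 2 and 3. The next had -0.23, -0.13 and 0.23. The dimmest of these probes had -0.049, -0.055 and 0.068. All were below 0 in pools 1 and 2, and in pool 3 the brightest stood below 0 and the others above it. Over 3 pools their means were -0.18, -0.042 and -0.012. The other Glra2 probes were above background on no array, and 1 of them, at -0.030 ± 0.0058, had an unadjusted p under 0.05.

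On the brightest Glra2 probe, the mutant in Cy5 gave 590.3, 421 and 335 scanner units in pools 1, 2 and 3, against 421, 261 and 170.1 for the reference in Cy3. With the mutant in Cy3 it gave 277, 317 and 203, against 746, 776 and 450.3 for the reference in Cy5. After loess the ratios were -0.53, -0.19 and -0.12 with the mutant in Cy5, and -0.13, -0.12 and 0.0064 with the mutant in Cy3. The ratio was below 0 on 5 of 6 arrays, and pool 1 held the lowest value, with its mutant RNA in Cy5. The mean had a 95% interval of -0.32 to -0.041 and in limma an unadjusted p of 0.021 (adjusted p = 0.91). With no offset the interval was -0.42 to 0.013. The mean was -0.11 without pool 1 and -0.27 when arrays were centred on their median.

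Without pool 3, Glra2 was called: the brightest probe had -0.24 (limma, adjusted p = 0.024) and the next -0.18 (adjusted p = 0.016). These were the only calls among the 81 probes in that fit, or 2.47% of them, while 4.86% of all gene probes were called there. The probes name the same gene and are not replicates of each other. At an unadjusted p under 0.05 there were 13 of the 81 member probes in that fit, against 15.7% of all gene probes. Some markers of other cells also differed between these pools and pool 3. Of 4 forebrain markers, 3 were measured and all were above background. Their median ratio was -0.46, -0.42 and 0.026 in pools 1, 2 and 3. Their summed background-subtracted signal was 60.5 to 295 in the mutant channel and 112 to 430.4 in the reference channel. Such ranges, here and for the other marker lists, span 6 arrays and both dyes. They show the level of signal and do not compare the genotypes. Of 6 oculomotor and cholinergic markers, 4 were measured and 2, Isl1 and Slc5a7, were above background, with ratios of -0.63, -0.54 and 0.054 for Isl1 and -0.0098, -0.0037 and -0.012 for Slc5a7. Isl1 was thus low in pools 1 and 2 only, and Slc5a7 lay near 0 in every pool. The summed signal over the 4 genes was 64.3 to 244 in the mutant channel and 90.8 to 214 in the reference channel, and Chat and Phox2a were above background on no array. Of the 4 markers of glutamatergic and red nucleus neurons, all were measured, 2 were above background, and Tbr1 was above background on no array. The 2 above background were Lhx9, with -0.81, -0.42 and -0.12 in pools 1, 2 and 3, and Slc17a6, with -0.21, -0.19 and -0.051. Pou4f1, above background on 4 arrays, had 0.037, -0.049 and -0.0016, and Tbr1 had 0.0080, -0.048 and 0.0038. The summed signal over the 4 genes was 349 to 995 in the mutant channel and 279.8 to 1202 in the reference channel. Of 6 markers of all neurons, all were above background, with a median ratio of 0.033, 0.063 and 0.0073 in pools 1, 2 and 3. Of 3 serotonergic markers, 2 were measured. Tph2, above background on all arrays, had 0.12, 0.19 and 0.097. Slc6a4, above background in the mutant on 4 arrays and in the reference on none, had 0.16, 0.25 and 0.070. The part of these markers in the Glra2 ratios was not tested.

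Glrb was above background on no array, with 0.055, -0.013 and 0.041. It lies next to Gria2 on chromosome 3 in the RefSeq gene order. Glra1, Glra3 and Glra4 were also above background on no array. Glra4 stood at 0.038 ± 0.0049 and was the 1 member on the higher side at an unadjusted p under 0.05, but it was -0.047 with the mutant in Cy5 and 0.12 with the mutant in Cy3. With only the latter arrays its adjusted p was 0.043 (limma), on a spot that was not well above background, and 1.35% of all gene probes were called in that fit.

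The proximal promoters of Glra2 and Gria2, the genes with the lowest ratios, are shown because Pitx3 belongs to the bicoid-type homeodomain proteins, which bind TAATCC. The windows run from 250 bases before to 50 after the annotated start, from RefSeq (GRCm38.p6), 5′ to 3′ on the gene's strand. Glra2 lies at chrX:165327344-165327643 and Gria2 at chr3:80802786-80803085, both on the minus strand. Capitals mark TAATCC or GGGCGG, the binding letters of Sp1-type factors, on either strand.
Glra2: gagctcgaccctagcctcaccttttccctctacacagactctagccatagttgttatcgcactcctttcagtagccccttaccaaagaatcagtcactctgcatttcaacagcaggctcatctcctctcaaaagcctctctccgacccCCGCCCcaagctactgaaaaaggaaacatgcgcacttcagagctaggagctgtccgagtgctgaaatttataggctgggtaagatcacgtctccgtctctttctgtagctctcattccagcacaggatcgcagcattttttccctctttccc
Gria2: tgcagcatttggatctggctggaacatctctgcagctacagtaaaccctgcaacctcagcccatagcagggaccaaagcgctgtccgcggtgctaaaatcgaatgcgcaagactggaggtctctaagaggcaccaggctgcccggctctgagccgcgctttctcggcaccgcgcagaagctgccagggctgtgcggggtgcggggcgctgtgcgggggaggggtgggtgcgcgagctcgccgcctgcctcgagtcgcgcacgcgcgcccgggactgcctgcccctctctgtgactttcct
Neither window held TAATCC on either strand. The Glra2 window held GGGCGG 1 time, on the opposite strand, and the Gria2 window 0 times, although its GC content was 65.7% against 50.3% for Glra2. A window was given for 39 of the 52 member genes, 45 windows in all. TAATCC was present in 2 of them (4.44%), those of Gabra2 and Chrne, against 7.06% of all 32851 promoter windows. GGGCGG was present in 23 (51.1%), against 35.7% of all windows. The 2 motifs were counted separately, also where their letters overlap, and a match is not a measured binding site.

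Nicotinic receptors were the largest class, with 16 measured genes. The neuronal subunits above background on all arrays were Chrna2, Chrna3, Chrna10, Chrnb2 and Chrnb3. Chrnb3, which joins alpha6 in receptors of dopaminergic neurons, had the ratio furthest from 0, with -0.0046, -0.063 and -0.050 in pools 1, 2 and 3. All pools were below 0, and its 95% interval was -0.081 to 0.0023. The offset bears on this dim probe: with none added the mean was -0.21 instead of -0.039, with an interval of -0.44 to 0.026. A second Chrnb3 probe was above background on no array and stood at 0.0041. Chrna6, the neighbour of Chrnb3 on chromosome 8, was above background on no array, with -0.049, -0.026 and 0.0030.

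Chrnb2, the common beta subunit of brain nicotinic receptors, had 0.0098, 0.011 and 0.0063 in pools 1, 2 and 3. This close agreement between pools hid a dye difference, since the mean was 0.082 with the mutant in Cy5 and -0.064 with the mutant in Cy3. Chrna4, its usual partner, was above background in the reference on 3 arrays and in the mutant on none, at -0.013 ± 0.013. Chrna10, known from the hair cells of the inner ear, had -0.043, -0.071 and 0.0065, and again 0.071 and -0.14 by dye orientation. Chrna2 had 0.0088, 0.040 and 0.020. Chrna3, which lies in a run of 3 neighbouring genes with Chrna5 and Chrnb4 on chromosome 9, had -0.018, -0.038 and 0.030, while the other two were above background on no array. Chrna7 and Chrna9 were above background on no array either.

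The muscle-type subunits were also on the array. Chrng, the fetal muscle subunit, had 0.030, 0.029 and 0.025 in pools 1, 2 and 3, and Chrne, its adult replacement, had -0.029, -0.011 and -0.030. A second Chrne probe, above background on no array, stood at 0.013 ± 0.0038, with the opposite sign in every pool. Chrnd stood at 0.030, -0.011 and 0.0029. The Chrng, Chrnd and first Chrne probes were above background on all arrays. Chrnb1 was above background on 5 arrays, at -0.0037 ± 0.0099, and Chrna1, which all muscle receptors need, on none. Of 6 skeletal muscle markers 5 were measured: Actc1, Ckm and Myod1 were above background and Myog and Tnnt1 were not. Actc1 stood at 0.073 ± 0.0091, Ckm at 0.0027 ± 0.014, Myod1 at -0.021 ± 0.047, Myog at -0.024 ± 0.012 and Tnnt1 at 0.0056 ± 0.011. The markers did not share a sign. Their summed signal, across arrays of both dye orientations, was 229.9 to 660.1 in the mutant channel and 243 to 679.9 in the reference channel. The part of muscle tissue in these signals was not tested.

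**Figure D3:**
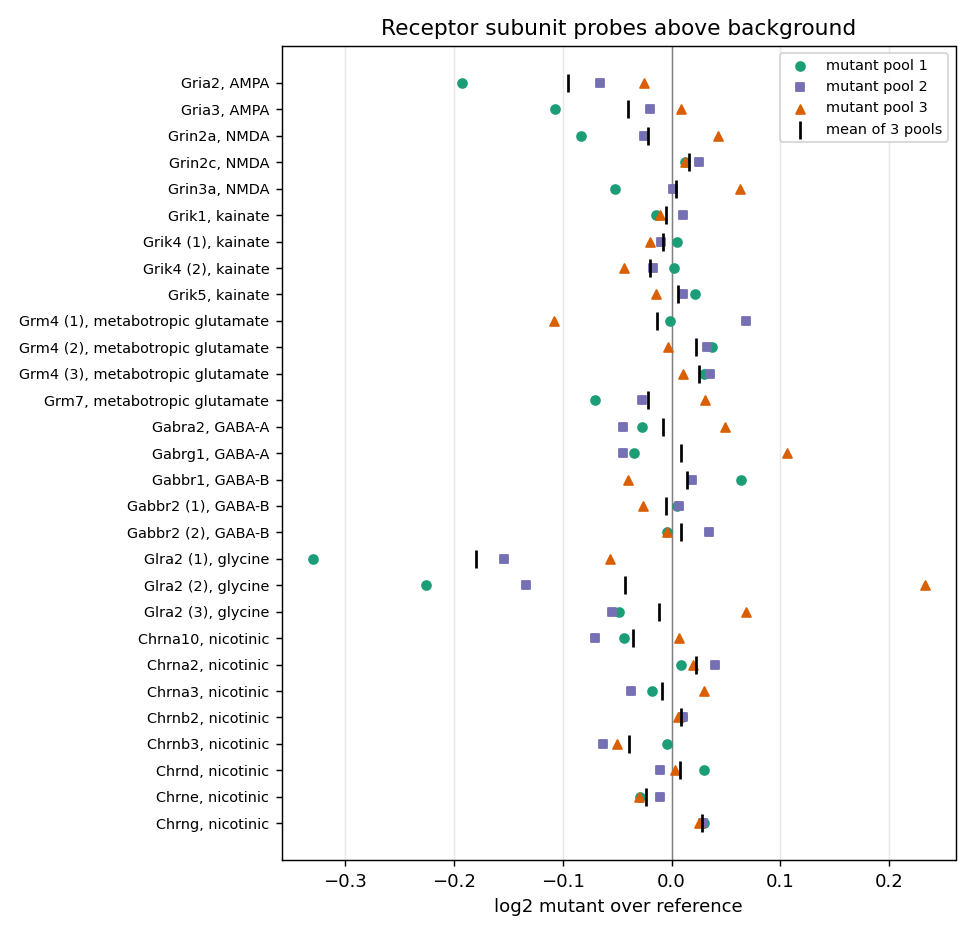
Log2 mutant over reference (horizontal axis) of the 29 receptor subunit probes above background on all arrays, with 1 symbol for each mutant pool and a bar at the mean of 3 pools; numbers in brackets separate probes of the same gene, brightest first. Glra2 and Gria2 lie furthest to the left, and 27 of the 29 means lie within 0.05 of 0.

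Taking the 29 probes above background as a whole, the median ratio was -0.0075, and over all 13882 probes above background it was -0.0014. The mean was below 0 for 17 of them (58.6%), against 52.3% of all probes above background. In all 3 pools, 4 were lower (13.8%, against 13.2%) and 5 higher (17.2%, against 12.6%). The probes lower in all pools were those of Gria2, Glra2, Chrnb3 and Chrne. A ratio of at least 0.1 in size was reached by 1 probe, that of Glra2. Of all probes above background, 2.81% reached it in either direction and 1.55% on the lower side. This count depends on the offset. With none added, the probes of Gria2 (-0.11) and Chrnb3 (-0.21), a Grm4 probe (0.11) and the next Glra2 probe (-0.12) also reached that size. The share over all probes was not counted with no offset. The median SD between pools was 0.031 for the receptor probes and 0.034 for all probes above background. These shares lie near those of all probes above background.

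The 95% interval lay within a 1.2-fold change in either direction (0.26 on the log2 scale) for 27 of the 29 probes. The offset shrinks ratios of dim spots, and with no offset 17 of the 29 lay within that range. The exceptions in the first count were the 2 brighter Glra2 probes. For the 52 probes that did not pass the background rule, ratios lay between -0.036 and 0.038, and spots so near background can show little change of any size.

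Pool and dye orientation moved many of the ratios. The pattern of Gabra2 and Gabrg1, below 0 in pools 1 and 2 and above 0 in pool 3, was found in 9 of the 29 probes (31.0%) and in 21.9% of all probes above background. The others were those of Gria3, Grin2a, Grm7, Chrna3 and Chrna10 and 2 of Glra2. Ratios had opposite signs in the 2 dye orientations for 17 of the 29 (58.6%), against 65.7% of all probes above background. Opposite signs mean, by arithmetic, that the dye term was larger than the ratio itself. That term cancels in the mean of a dye-swapped pair. With the arrays of a single orientation, 16 (mutant in Cy5) and 21 (mutant in Cy3) of the 81 member probes had an unadjusted p under 0.05. Among all gene probes these shares were 22.6% and 22.0%. With the mutant in Cy5 none passed the adjusted p, against 0.982% of all.

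**Figure D4:**
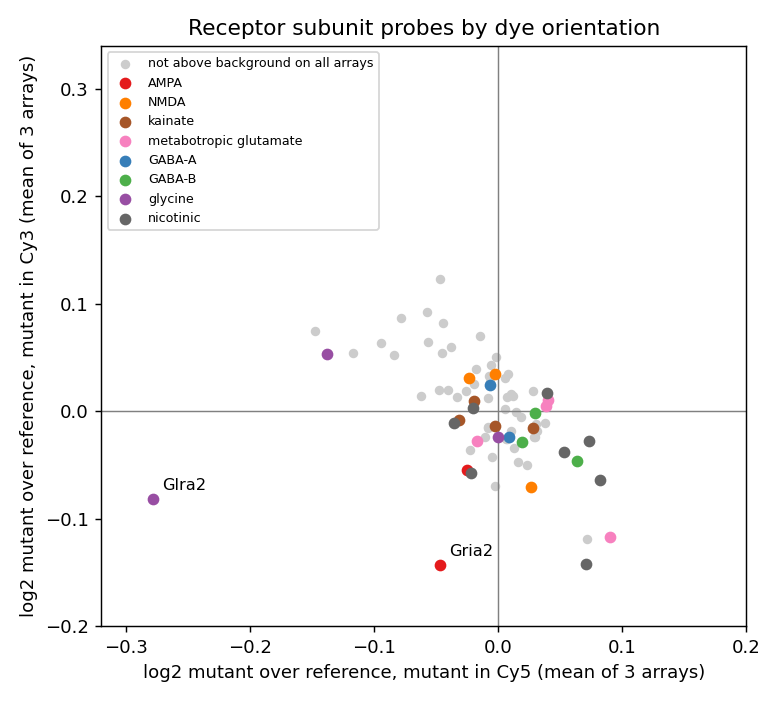
Log2 mutant over reference of the 81 receptor subunit probes averaged over the 3 mutant-in-Cy5 arrays (horizontal axis) and the 3 mutant-in-Cy3 arrays (vertical axis), coloured by class where above background on all arrays and grey otherwise. Points at the upper left and lower right have opposite signs by dye, and the brightest Glra2 probe and Gria2 lie at the lower left, below 0 on both axes.

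Proteins that place, regulate or feed these receptors were compared as a separate list of 58 genes, of which 50 were measured and 32 were above background. None passed over all probes in limma. At an unadjusted p under 0.05 there were 8 of 50 (16.0%), 3 lower and 5 higher, against 4.87% of all gene probes. Among those above background there were 7 of 32 (21.9%), against 9.48% of all probes above background.

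Of the auxiliary subunits of AMPA receptors, 5 were measured and none passed over all probes. Cacng2, which encodes stargazin and brings AMPA receptors to the synapse, had 0.060, 0.12 and 0.070 in pools 1, 2 and 3. Cacng4, a relative of stargazin, had 0.17, 0.10 and 0.013. Both were above 0 in every pool and in both dye orientations, and the limma adjusted p of each was 0.91. Cnih3, another auxiliary subunit, was above background on no array, at 0.038 ± 0.019. Cacng5 and Cnih2 had values of both signs, with 0.074, 0.030 and -0.064 for Cacng5 and 0.20, 0.059 and -0.064 for Cnih2. Pick1, whose protein takes Gria2-containing receptors in from the surface, had -0.10, -0.0035 and -0.071, and Nsf, the fusion ATPase, had -0.069, -0.031 and -0.022. Nsf had opposite signs by dye, at 0.039 with the mutant in Cy5 and -0.12 with the mutant in Cy3.

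Transmitter transporters ranged from -0.15 for Slc17a6 to 0.21 for Slc32a1, and most lay near 0. Means were 0.043 for Slc6a9, 0.016 for Slc1a1, 0.011 for Slc6a5 and Slc17a7, 0.00085 for Slc17a8, -0.0049 for Slc1a2 and -0.0085 for Slc5a7. Of these, Slc6a5 and Slc17a7 were above background on no array and Slc17a8 on 1. Slc32a1, which loads GABA and glycine into vesicles, had 0.25, 0.25 and 0.14, and Slc6a11, a GABA uptake transporter, had 0.098, 0.064 and 0.12. Slc17a6, which loads glutamate into vesicles, had -0.21, -0.19 and -0.051, but -0.33 with the mutant in Cy5 and 0.022 with the mutant in Cy3. Slc1a3, a glial glutamate transporter, had 0.39, 0.20 and -0.026. Gad1, a GABA synthesis enzyme, had -0.049, 0.093 and 0.12. Of 6 markers of GABAergic neurons, a list that also holds Gad1 and Slc32a1, all were measured and 5 were above background, and none was at background on every array. The median ratio of the 5 above background was 0.19, 0.25 and -0.016. The summed signal over all 6, across arrays of both dye orientations, was 556 to 1903 in the mutant channel and 346 to 1552.5 in the reference channel. The part of these markers in the transporter ratios was not tested. Shank3, a scaffold gene, had 0.14, 0.18 and -0.085. The trafficking genes Gabarap and Gabarapl2 had 0.14, 0.089 and -0.11, and -0.17, -0.086 and 0.038. In Shank3, Gabarap and Gabarapl2, named after their values were seen, pool 3 had the opposite sign to pools 1 and 2. The scaffold genes Dlg1, Dlg3, Homer1, Homer2, Homer3, Shank1 and Grip2, also above background, had means between -0.033 and 0.016. Gphn, the gephyrin gene, was above background in the mutant on 1 array and in the reference on 3, at 0.0054 ± 0.024.

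**Figure D5:**
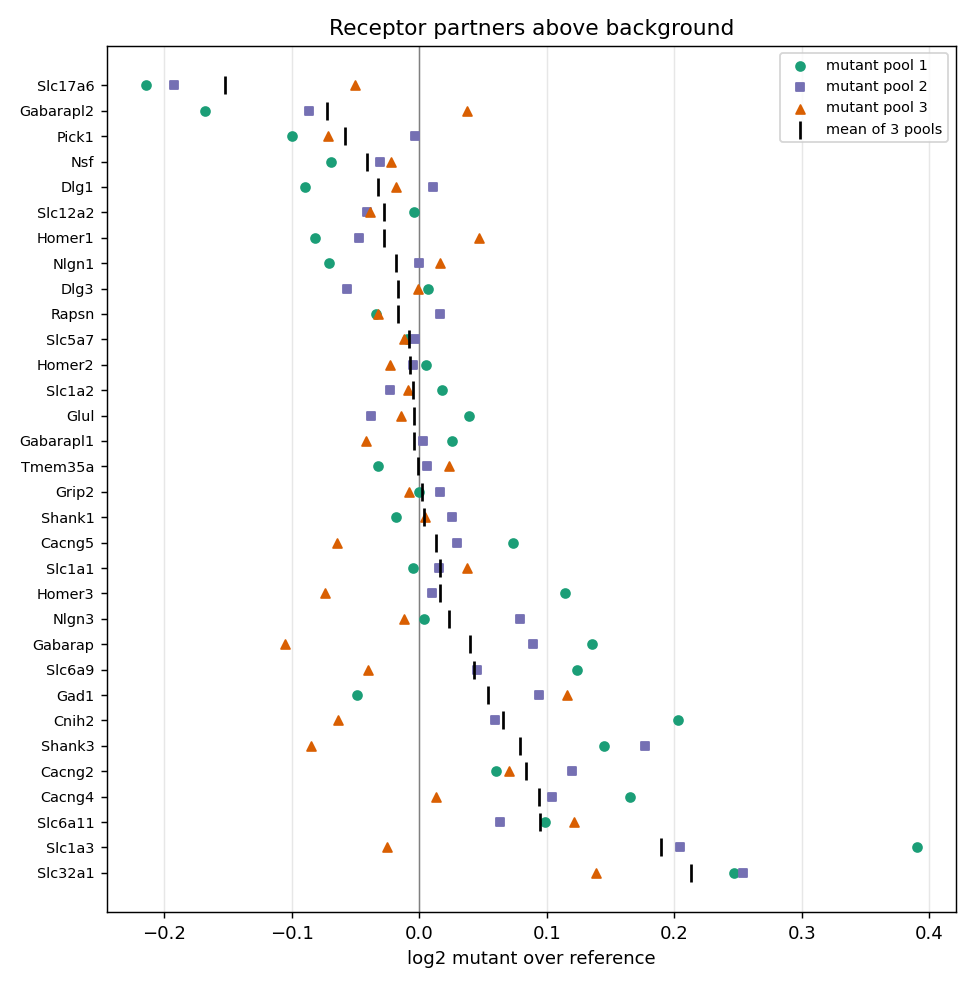
Log2 mutant over reference (horizontal axis) of the 32 receptor partner genes above background on all arrays, ordered by the mean of 3 mutant pools (bar), with 1 symbol for each pool. Slc17a6 is at the low end and Slc32a1 at the high end, and pool 3 lies apart from pools 1 and 2 in Shank3, Gabarap, Gabarapl2 and Slc1a3.

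Without pool 3, 7 of the 50 partner genes were called by limma, 2 lower and 5 higher (14.0%, against 4.86% of all gene probes). Here too the share over all takes every probe and not the brightest of each gene. The lower ones were Slc17a6 and Gabarapl2 and the higher ones Slc32a1, Shank3, Slc1a3, Cacng4 and Gabarap. That fit rests on 2 pools, and only Slc17a6, Slc32a1 and Cacng4 among these genes kept their sign in pool 3.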

How the data were processed

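RNA of 3 Pitx3-/- pools and 1 Pitx3+/+ reference was measured on 6 dye-swapped arrays. The authors deposited scanner output with spot and local background intensity (Agilent scanner, ImaGene), per the deposited protocol descriptions. The authors' deposited log2 ratios follow print-tip loess without background subtraction. They matched the authors' derived files within 5e-06 once turned to mutant over reference, which settles scale and direction; column medians lay between -0.0022 and 0.0020. Whether a pool holds littermates is not given. In the main fit p-values measure the spread between pools only, and in the fit of 6 single arrays also that between arrays of a pool. The single reference leaves out the control's own spread.

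Here, limma 3.58.1 (R 4.3.3) applied normexp with an offset of 50 and loess (span 0.3, control spots at weight 0), and left out 3223 control spots. Pool means were tested against 0 with lmFit and eBayes and adjusted by Benjamini-Hochberg over 31769 probes. Intervals are limma's at 95%. Only the averaging into pool means and the limma fit were run on simulated log2 ratios, and no outcome of that run is given. Background correction, the offset, loess and the background rule were not part of it. The simulated pools were alike, so a pool that stands apart from the others was not covered either.

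Symbols came from the platform table (26000 named probes); all 52 member symbols are current in RefSeq GRCm38.p6. For other lists, the brightest probe of each gene was used. The arrays name no build. Members and lists were chosen with earlier results of these data known. Named with full values were probes above background with an unadjusted p under 0.05 or a ratio of at least 0.1 in size, and the largest ratio of each class. Pool values of further members and of single partner genes were chosen after their values were seen. No group had more than 3 replicates, so none was tested for outlying samples. Alternatives covered background correction, normalization, variance model, arrays or pools as replicates, dye orientation, the background rule and each pool left out.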

Additional observations from a re-analysis of the deposited data

How the results depend on the processing

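The number of receptor subunit probes past an adjusted p of 0.05 was 0 in limma's main fit and in every alternative, with 2 exceptions: leaving out pools in turn gave 0 to 2, the 2 being Glra2 probes without pool 3, and the arrays with the mutant in Cy3 gave 1, Glra4. The count at an unadjusted p under 0.05 was 6. It was 2 with the authors' deposited log2 ratios, 3 with all 6 arrays fitted under a random pool block, 16 with only the mutant-in-Cy5 arrays, 21 with only the mutant-in-Cy3 arrays, 1 with only probes above background in the fit, and 0 to 13 with a pool left out. The median ratio of probes above background (-0.0075) was -0.020 with no offset, -0.033 with median centring, -0.024 with the mutant in Cy3, 0.0027 over all 81 probes, and -0.0075 to 0.0033 with a pool left out. The number of probes above background was 29, and 49 and 18 with 1 and 3 background SDs. Among the named probes, Gabrg1 (0.0087) turned to -0.045 with median centring, -4.1e-05 with the authors' ratios and -0.0069 with the mutant in Cy5, and spanned -0.040 to 0.036 with a pool left out. Gabbr1 turned to -0.018 with median centring and -0.0016 with the mutant in Cy3, and spanned -0.011 to 0.041. Grin2a turned to 0.027 with the mutant in Cy5 and spanned -0.054 to 0.0088. The Glra2 brightest probe spanned -0.24 to -0.11 with a pool left out and -0.28 to -0.082 between dye orientations, always below 0. The causes were not tested. Signal over background limits most of the list. Each ratio compared mutant and reference RNA on the same array. All pools were set against 1 reference RNA, so no mutant pool had a control pool of its own.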

Other observations

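A further list held 15 related genes named otherwise: other subunit genes, the muscarinic receptor genes Chrm1 to Chrm5, and Grina. Of these 15, 14 were measured and 4 were above background on all arrays. None had an unadjusted p under 0.05 in limma, against 4.87% of all gene probes. The list takes the brightest probe of each gene, and the share over all takes every probe. Grina, which encodes a membrane protein once described with NMDA receptors, had ratios of 0.17, 0.098 and -0.064 in pools 1, 2 and 3. Grid1, a delta-type glutamate receptor gene, had 0.066, 0.032 and -0.00011. Gabrr1, a rho subunit of GABA receptors, had 0.019, -0.013 and 0.0062, and the muscarinic receptor gene Chrm2 had 0.028, -0.012 and 0.0069. Without pool 3, Grina was called as higher (limma, adjusted p = 0.025), 1 of 14 genes (7.14%), against 4.86% of all gene probes.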
